A study of Mus musculus with 3 samples.

Results

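Small nucleolar RNAs (snoRNAs) and the genes named for hosting them were followed in ureteric duct cells of the mouse embryo. Members were chosen by gene symbol: box C/D snoRNAs carry Snord symbols, box H/ACA snoRNAs carry Snora symbols, and the host genes are Gas5 and the numbered Snhg genes. Of 19938 genes with a probe set of their own, 57 were members, made up of 31 box C/D snoRNAs, 20 box H/ACA snoRNAs and 6 hosts. They were read by 68 probe sets, and 8 members had more than 1. The set was proposed after Gas5 had been seen among the brightest genes of these arrays, and Snord95, Snora41 and Snord49b among the genes with the widest ranges. The levels and ranges of these 4 genes are therefore given as descriptions, and counts are also given without them.

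The study holds a single group of 3 samples, numbered 1 to 3, with 1 array each. Each sample was Hoxb7-EGFP duct cells, labelled ureteric trunk, from CD-1 mice at Theiler stage 18, that is 10.5 days post coitum, isolated by microdissection, trypsin and fluorescence sorting. The transgene is driven by the Hoxb7 promoter, which is active in the nephric duct and its derivatives, and the labels give 1 duct per sample with no pooling and leave sex as unknown. Total RNA went through 1 amplification round with NuGEN's WT-Ovation Pico kit, made for very small inputs, and was hybridised to an Affymetrix mouse array. No second condition was measured, and the labels do not state whether separate embryos were used, so the p-values speak for the variation among these 3 samples alone, possibly technical in part or in whole.

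A snoRNA guides a chemical change to a chosen base of another RNA, mostly ribosomal RNA. Box C/D snoRNAs work with the methyltransferase fibrillarin and direct ribose methylation, and box H/ACA snoRNAs work with the pseudouridine synthase dyskerin and direct the conversion of uridine to pseudouridine. In mammals most are cut out of introns of a longer host transcript, which is either the pre-mRNA of a protein-coding gene, often one for a ribosomal protein or translation factor, or a noncoding RNA such as Gas5 or an Snhg transcript. Growing embryonic cells make ribosomes at a high rate and are known to need this machinery.

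The deposited values are log2 signals, 1 for each probe set and array. A gene with several probe sets is given by the one with the highest mean, and values are mean ± SD over the 3 arrays (n = 3). Background was taken per array from 1210 probe sets of olfactory and vomeronasal receptors, and its cutoff, their 95th percentile, stood at 5.70, 5.73 and 5.71 log2 units on arrays 1, 2 and 3. A gene is called above background where limma's one-sided test gave a Benjamini-Hochberg adjusted p under 0.05 over all 21789 single-gene probe sets. A gene whose 3 arrays carry an identical signal is called tied and written as one value, and its error is then unknown rather than 0. Probe sets differ in affinity, so signals of different genes do not rank their transcript amounts. In bulk samples, fewer cells of a type and less RNA per cell cannot be told apart.

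The sorted cells carried the duct markers. All 9 genes of a short duct list were above background, against 56.1% of all genes. They ran from Calb1 at 11.71 ± 0.03 and Krt8 at 10.56 ± 0.37 to Ret at 7.00 ± 0.19. Markers of other cells were also read, beside the same 56.1% of all genes. Of 7 endothelial genes 7 were above background, of 6 measured red cell genes 1 was, the transcription factor gene Gata1 at 6.06 ± 0.05, and of 6 mesenchyme genes 1 was. Emcn at 10.07 ± 0.69 and Cdh5 at 9.10 ± 0.58 led the endothelial list, and Esam was its lowest at 6.05 ± 0.10. The embryonic globin genes Hbb-y and Hba-x had the highest means of the red cell list but were not called, and read 10.02 and 8.89 on array 1, 5.31 and 5.97 on array 2, and 5.45 and 5.84 on array 3, while Rhag was lowest at 3.97 (one value). In the mesenchyme list Pdgfra read 5.88 ± 0.18, Gdnf, the one called, 5.80 ± 0.05 and Lum 3.23 (one value).

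Above background were 27 of the 57 members, or 47.4%, against 56.1% of all genes. The classes stood at different shares. Box H/ACA snoRNAs were called in 13 of 20 cases (65.0%), box C/D snoRNAs in 9 of 31 (29.0%) and hosts in 5 of 6 (83.3%). The median of the mean signals was 7.49 log2 units for box H/ACA, 6.20 for box C/D and 6.91 for hosts, against 6.04 for all genes. A call depends on spread over the arrays as well as on level, so the shares do not rank the classes by level. Among genes that were not tied, the median SD was 0.91 for box C/D, 0.50 for box H/ACA and 0.11 for all genes. Of 9096 other genes with means between the quartiles of the snoRNA means, 5.59 and 7.78, 85.9% were called. All these values are descriptions of the probe sets, and the difference between the classes was not tested. A cutoff 1 log2 unit higher left 6 of 20, 6 of 31 and 2 of 6, against 28.3% of all genes. A cutoff at the 99th percentile left 8 of 20, 7 of 31 and 4 of 6, against 36.1% of all genes. The fitted p of tied genes is too small, and ties were rarer among the members. With tied probe sets given the median spread of those not tied, 33 of the 57 members (57.9%) were called. The share of all genes was then 53.9%, so the members stood above it. By class the counts were 15 of 20, 13 of 31 and 5 of 6. The order of the classes against all genes also changed when an array was left out. Without array 3, box C/D genes were called in 20 of 31 cases (64.5%), against 51.9% of all genes. They then stood above the share of all genes and not below it. In that fit limma gave all genes a common spread, so a gene's own wide range did not count against its call. Snord16a was called there, although it read 5.05 on array 1, where the cutoff was 5.70. Without array 2, box H/ACA genes were called in 9 of 20 cases (45.0%), against 54.9% of all genes, so they stood below it and not above it. Without array 1 the counts were 13 of 31 (41.9%) and 14 of 20 (70.0%), against 55.2%. Without the 4 genes that prompted the set, calls on all 3 arrays came to 12 of 19 for box H/ACA, 7 of 29 for box C/D and 4 of 5 for hosts. The share of all genes called on all 3 arrays was 56.1%.

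**Figure D1:**
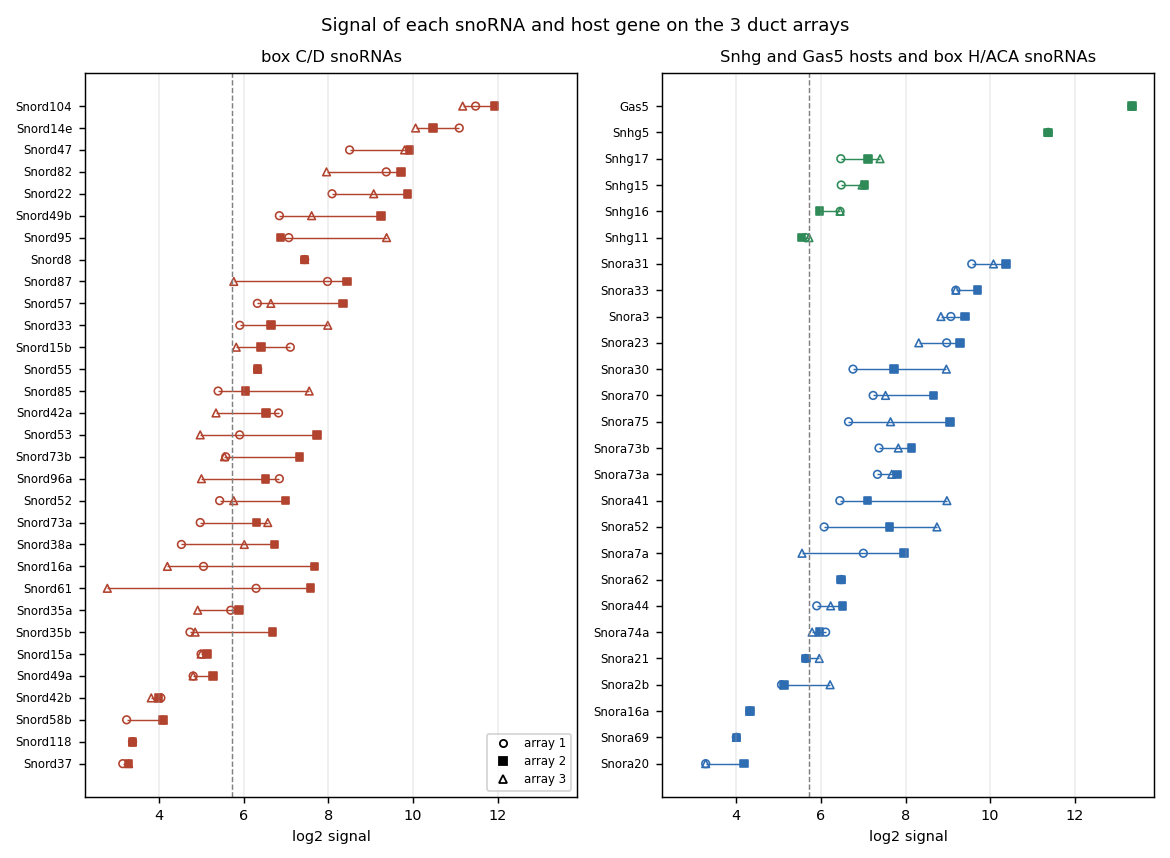
Log2 signal (x axis) of each member on array 1 (open circles), array 2 (filled squares) and array 3 (open triangles), with box C/D snoRNAs left and hosts (green) above box H/ACA snoRNAs (blue) right; the dashed line is the mean background cutoff. Each gene is drawn by its brightest probe set. Gas5 and Snhg5 so drawn sit at one value on all arrays, while Snord61 spans 4.81 log2 units.

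Among the hosts, Gas5 and Snhg5 had the brightest probe sets. Gas5, a noncoding RNA gene first known from growth-arrested cells whose introns hold several box C/D snoRNAs, read 13.36 on every array from its brightest probe set. Its 3 other probe sets were not tied. They read 10.13, 11.30 and 10.38 on arrays 1, 2 and 3 in one case, 8.24, 9.41 and 8.99 in another, and 8.01, 9.59 and 8.70 in the dimmest. Each of these 3 was lowest on array 1 and highest on array 2, with ranges of 1.17, 1.18 and 1.58 log2 units, whereas the brightest showed no range at all. Snhg5, another noncoding snoRNA host, read 11.37 (one value) from its single probe set.

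The other hosts lay closer to the background. Snhg17 read 6.47, 7.11 and 7.40 on arrays 1, 2 and 3 (limma, Benjamini-Hochberg adjusted p = 0.00801), and its remaining probe sets read 6.79 (one value) and 6.78 ± 0.12. Snhg15 read 6.48, 7.03 and 6.97 (adjusted p = 0.00308, limma with Benjamini-Hochberg adjustment). Snhg16 read 6.45, 5.97 and 6.45 (adjusted p = 0.021, by the same test). All 3 were called, and the arrays did not order them alike, since array 1 was lowest for Snhg15 and Snhg17 and array 2 for Snhg16. Snhg11, which in the adult is known mainly from brain, read 5.64, 5.54 and 5.72 and 5.35 (one value) from its pair of probe sets and was not called. The Snhg17 call ended without array 2, the Snhg16 call with a cutoff at the 99th percentile, and the calls of Snhg15, Snhg16 and Snhg17 with the raised cutoff.

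Host genes of snoRNAs are known for transcripts that begin with a C and a run of pyrimidines, the terminal oligopyrimidine tract, which ties translation of the mRNA or turnover of the host RNA to growth signals. The start regions of Gas5, Snhg5, Snhg15, Snhg16 and Snhg17 are shown because these are the hosts called above background. Each sequence runs 5′ to 3′ on the transcribed strand, with 20 bases before the annotated start and 50 from it on (RefSeq, GRCm38.p6). Capitals mark the first C followed by at least 4 further C or T bases that begins within 5 bases of the start, or, failing that, within 15 bases. Gas5 has 2 annotated starts on chromosome 1, at chr1:161034581-161034650 and chr1:161035146-161035215, both on the plus strand. Snhg5 lies at chr9:88522848-88522917 on the minus strand, Snhg16 at chr11:116671640-116671709 on the plus strand and Snhg15 at chr11:6528711-6528780 on the minus strand. Snhg17 has 2 overlapping start regions on the minus strand, chr2:158361460-158361529 and chr2:158361473-158361542.
Gas5, first start: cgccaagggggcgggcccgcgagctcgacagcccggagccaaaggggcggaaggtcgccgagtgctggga
Gas5, other start: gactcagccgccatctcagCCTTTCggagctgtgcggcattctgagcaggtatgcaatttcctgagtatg
Snhg5: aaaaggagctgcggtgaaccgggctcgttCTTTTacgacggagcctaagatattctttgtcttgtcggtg
Snhg16: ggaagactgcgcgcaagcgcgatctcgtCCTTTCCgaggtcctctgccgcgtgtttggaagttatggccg
Snhg15: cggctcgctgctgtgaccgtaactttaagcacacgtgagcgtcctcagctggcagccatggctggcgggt
Snhg17, first region: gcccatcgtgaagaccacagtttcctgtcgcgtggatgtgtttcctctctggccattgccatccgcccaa
Snhg17, other region: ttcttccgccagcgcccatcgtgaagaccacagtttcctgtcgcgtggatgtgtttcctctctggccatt

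In Gas5 the tract CCTTTC began at position -1, the last base before the other annotated start. In Snhg5 and Snhg16 a tract lay further in, beginning at positions 10 and 9 counted from 1 at the start, and in Snhg15 and at both starts of Snhg17 none was found within 15 bases. Searched on the transcribed strand within 5 bases of a start, the motif was held by 1 of the 6 hosts on these arrays (16.7%). It was held by 8 of the 16 Snhg and Gas5 genes of the promoter table, by 8 of 23 protein-coding genes that enclose a snoRNA member (34.8%), and by 5718 of all 27025 genes of the table (21.2%). Within 15 bases, a width chosen after seeing the sequences, the shares were 3 of 6, 10 of 16 and 11 of 23, against 44.9% of all genes. A match describes these letters at an annotated start and says nothing of use in these cells.

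Box C/D snoRNAs spanned mean signals of 3.23 to 11.53 log2 units. Snord104 was the brightest, at 11.48, 11.92 and 11.17 on arrays 1, 2 and 3 (limma, Benjamini-Hochberg adjusted p = 6.85e-05). Snord14e, which lies inside the heat shock cognate gene Hspa8, read 11.09, 10.48 and 10.06. Snord47, which lies inside Gas5, read 8.50, 9.92 and 9.80, so it was lowest on array 1 as were the 3 dimmer Gas5 probe sets. Snord82, inside the nucleolin gene Ncl, read 9.37, 9.72 and 7.96, with array 3 more than a log2 unit below the others.

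Snord22, inside Snhg1, read 8.09, 9.87 and 9.07, and Snord49b, inside the noncoding gene 2410006H16Rik, read 6.84, 9.25 and 7.60. Both were lowest on array 1 and highest on array 2. Snord95, inside the ribosome-associated scaffold gene Rack1, read 7.06, 6.87 and 9.37 and was highest on array 3. Snord8 at 7.44 and Snord55 at 6.33, each with one value, completed the 9 box C/D genes called, and they were the called genes nearest to the cutoff. Not called, with means nearest to the cutoff, were Snord38a, at 4.52, 6.73 and 6.01, and Snord16a, at 5.05, 7.67 and 4.19, whose means differed from the mean cutoff by 0.04 and -0.07. Of the box C/D genes whose means lay above the cutoff without a call, Snord57, inside the box C/D particle gene Nop56, read 6.32, 8.34 and 6.64 (limma, Benjamini-Hochberg adjusted p = 0.0564). Snord57, Snord87, Snord15b and Snord33 were above the cutoff on each array and came closest to a call among the box C/D genes not called, the last 3 with adjusted p-values of 0.0701, 0.0767 and 0.0861 by the same test. Snord15b and Snord42a, at 7.10, 6.41 and 5.82 and at 6.82, 6.52 and 5.34, were highest on array 1. Snord85 and Snord73a, at 5.39, 6.04 and 7.55 and at 4.97, 6.30 and 6.57, ran the other way and were highest on array 3. Snord73b at 6.14 ± 1.02 and Snord52 at 6.06 ± 0.82 were highest on array 2. Below the cutoff by their means stood Snord35b at 5.42 ± 1.09, Snord15a at 5.03 ± 0.08, Snord49a at 4.96 ± 0.27 and Snord42b at 3.94 ± 0.12. Of these 4, Snord35b passed the cutoff on one array, array 2, where it read 6.68. The lowest means belonged to Snord37 at 3.23 ± 0.08, Snord118 at 3.37 (one value) and Snord58b at 3.80 ± 0.50. Snord118, the one snoRNA member with no enclosing gene in the reference table, is known as the box C/D RNA needed for maturation of the large-subunit ribosomal RNAs.

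Box H/ACA snoRNAs spanned 3.58 to 10.01. Snora31, inside Tpt1, led at 9.57, 10.38 and 10.08 on arrays 1, 2 and 3 (limma, Benjamini-Hochberg adjusted p = 0.000184). Snora33, inside the ribosomal protein gene Rps12, read 9.19, 9.70 and 9.19, Snora3, inside Rpl27a, 9.07, 9.41 and 8.84, and Snora23, inside the importin gene Ipo7, 8.97, 9.29 and 8.31. The ranges of these 4 brightest H/ACA genes stayed under 1 log2 unit, and array 2 was highest for each. Snora30 followed at 6.76, 7.73 and 8.97 and Snora70, inside Rpl10, at 7.23, 8.66 and 7.53.

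Snora73a and Snora73b, which lie inside Snhg3 and are near-identical copies known for a role in processing of small-subunit ribosomal RNA, read 7.60 ± 0.24 and 7.78 ± 0.39. Their probe sets may share signal, so the values are not independent. The 2 probe sets of Snora30 held identical values, as did those of Snord118, and those of Snora3 and Snord58b nearly so, which makes each pair 1 reading rather than a repeat. Of the called genes nearest to the cutoff, Snora74a read 5.96 ± 0.16 and Snora44 6.21 ± 0.30, with adjusted p-values of 0.042 and 0.0271 (limma, Benjamini-Hochberg). Of those not called, with means nearest to the cutoff, Snora21 stood at 5.75 ± 0.18 and Snora2b at 5.47 ± 0.65. Snora20 at 3.58 ± 0.52, Snora69 at 4.00 (one value) and Snora16a at 4.32 (one value) were lowest. The calls of Snora74a and Snora41 ended at the 99th percentile, with the raised cutoff, with olfactory receptors alone as background and without array 2, and those of Snord95 did so under the same 4 settings. The Snora44 call ended at the 99th percentile, with the raised cutoff and without array 2.

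Wide ranges over the arrays were common among the snoRNAs. The arrays spanned more than 1 log2 unit for 28 of the 51 snoRNAs (54.9%), against 3.15% of all genes. By class they did so for 21 of 31 box C/D genes (67.7%), 7 of 20 box H/ACA genes (35.0%) and 0 of 6 hosts. The host count takes Gas5 by its tied brightest probe set, whereas its 3 other probe sets spanned 1.17, 1.18 and 1.58. Without the 4 genes that prompted the set, 25 of 48 snoRNAs had such a span. Of the 628 genes with such a range, snoRNAs made up 4.46%, although they are 0.256% of all genes. A span of more than 2 log2 units was seen for 15 of the 51 snoRNAs (29.4%), against 0.451% of all genes, and snoRNAs were 16.7% of the 90 genes concerned. The 28 and the 15 snoRNAs include Snord95, Snora41 and Snord49b, whose wide ranges prompted the set. The shares built on these counts are therefore partly set by that choice. No test was made of these shares, since genes are not replicates. Over arrays 1 and 2 alone, the count over 1 log2 unit was 12 for box C/D and 3 for box H/ACA, against 1.17% of all genes. Over arrays 1 and 3 it was 13 and 5, against 1.88%, and over arrays 2 and 3 it was 15 and 7, against 1.84%.

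Identical signals made up a smaller share of the snoRNAs. Tied were 6 of the 51 snoRNAs (11.8%) and 2 of the 6 hosts (33.3%), against 50.8% of all genes. Among genes that were not tied, the median SD was 0.91 log2 units for box C/D, 0.50 for box H/ACA and 0.29 for hosts, against 0.11 for all genes. On arrays 1, 2 and 3, 19, 17 and 17 of the 51 snoRNA values were also held by a probe set of another gene on the same array (37.3%, 33.3% and 33.3%), against 57.1%, 56.0% and 55.0% of all genes.

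The wide ranges were set beside those of genes of like level, of other short RNAs and of other gene lists. Of 9096 other genes whose means lay between the quartiles of the snoRNA means, 5.59 and 7.78, 3.46% spanned more than 1 log2 unit. Of 297 microRNA genes 6.73% did so, and of the 94 of these at like level 10.6%. MicroRNA genes were tied in 54.9% of cases. Of 3 small Cajal body RNAs, relatives of snoRNAs that guide the same changes on spliceosomal RNAs, 1 had such a range: Scarna8 read 6.62, 6.22 and 8.69, while Scarna17 read 10.34 ± 0.35 and Scarna13 5.46 ± 0.07. Scarna17 was the 1 of the 3 called above background.

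**Figure D2:**
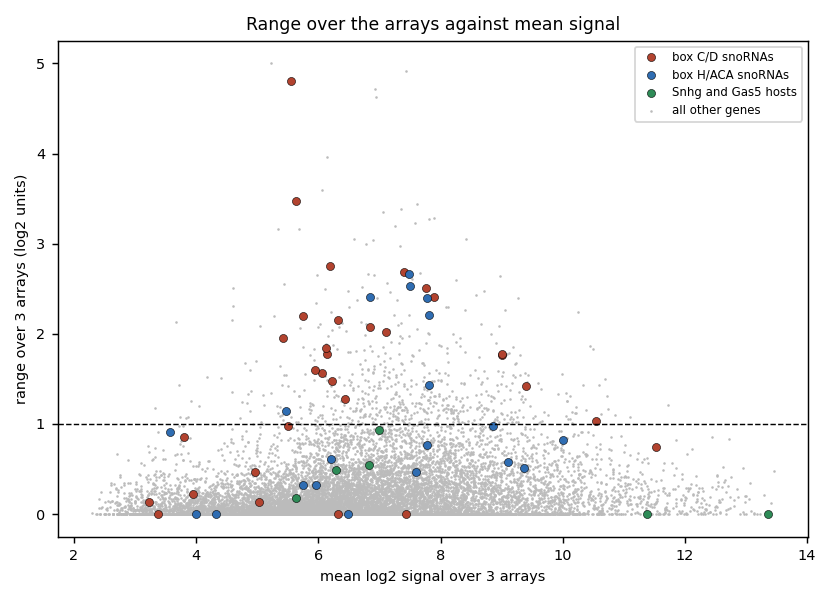
Range over the 3 arrays (y axis, log2 units) against mean log2 signal (x axis) for box C/D snoRNAs, box H/ACA snoRNAs, hosts and all other genes; the dashed line marks a range of 1. Each gene is drawn by its brightest probe set. Above the line lie 28 of 51 snoRNAs and 0 of 6 hosts, and 628 of all 19938 genes.

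The widest members differed in which array stood apart. Snord61, inside Rbmx, read 6.29 and 7.58 on arrays 1 and 2 and 2.77 on array 3, a range of 4.81. Snord16a, inside Rpl4, had a range of 3.48 from a high value on array 2. Snord53, inside the processome gene Wdr43, read 5.90, 7.72 and 4.97, and Snord87, inside Snhg6, read 7.98, 8.44 and 5.76. These 4 were lowest on array 3 and highest on array 2.

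Among the widest H/ACA genes other orders were seen. Snora52, inside Rplp2, read 6.08, 7.62 and 8.74, Snora41, inside Eef1b2, read 6.45, 7.10 and 8.98, and Snora30 had the same order, so that all 3 were lowest on array 1 and highest on array 3. Snora75, inside Ncl, read 6.65, 9.05 and 7.65, and Snora7a, inside Rpl32, 7.00, 7.96 and 5.55. Both were highest on array 2, with array 1 lowest for Snora75 and array 3 for Snora7a. With these spreads Snora52 and Snora7a were not called (limma, Benjamini-Hochberg adjusted p = 0.0535 and 0.113), although Snora52 lay above the cutoff on each array.

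Array 2 was most often the highest. Of the 45 snoRNAs that were not tied, 28 were highest on array 2 alone, 9 on array 3 and 6 on array 1, and 22 were lowest on array 1, 17 on array 3 and 1 on array 2. Among 9809 genes that were not tied, 2386 were highest on array 2, 2603 on array 3 and 2166 on array 1. Each snoRNA's value on array 2 minus the mean of its values on the other arrays had a median of 0.47 over all 51 snoRNAs, 0.59 over box C/D and 0.37 over box H/ACA, against 0.00 over all genes. The class medians on arrays 1, 2 and 3 were 5.90, 6.73 and 5.76 for box C/D and 6.57, 7.67 and 7.59 for box H/ACA. For all genes they were 6.04, 6.04 and 6.02. Array 2 is 1 sample. Of the 134 microRNA genes that were not tied, 57 were highest on array 2, 30 on array 3 and 13 on array 1.

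Several gene lists also differed between the arrays. All 7 endothelial genes were lowest on array 2, and their summed log2 signal came to 52.96 there, against 57.93 on array 1 and 58.28 on array 3. For 14 genes of the dissociation stress response array 2 summed to 95.24, array 1 to 100.94 and array 3 to 97.82. In that list 12 of 14 genes were above background (85.7%, against 56.1% of all genes). Jun at 8.80 ± 0.48 and Klf6 at 8.03 ± 0.25 were highest and Atf3 was lowest at 5.58 (one value). The 6 red cell genes summed to 31.41 on array 2, 41.07 on array 1 and 31.45 on array 3, so that array 1 stood apart, and the 9 duct genes to 78.02, 80.10 and 78.74. The 6 mesenchyme genes summed to 29.46 on array 2, 29.08 on array 1 and 29.16 on array 3. Array 2 was highest in the sums of 3 lists of genes for snoRNA work, ribosome production and RNA decay: 181.57 on array 2, 179.93 on array 1 and 179.91 on array 3 for 21 snoRNA particle genes, 258.22, 254.73 and 254.97 for 30 polymerase I and processome genes, and 88.62, 87.43 and 87.55 for 11 decay genes. The medians of these 3 lists did not all follow the sums. On arrays 1, 2 and 3 the particle genes had medians of 8.92, 9.04 and 8.91. Polymerase I and processome genes had medians of 8.27, 8.35 and 8.35. Decay genes had 7.79, 7.70 and 7.76, lowest on array 2. For 28 ribosomal protein, translation factor and other coding genes known to hold snoRNAs, the sum was highest on array 1 instead. They summed to 324.35 on array 1, 322.98 on array 2 and 322.73 on array 3, while their median was highest on array 3, at 12.02. The lowest marker of the cell type lists was Lum at 3.23, below the background cutoff and not called. What part the differences in these lists had in the snoRNA values was not tested.

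**Figure D3:**
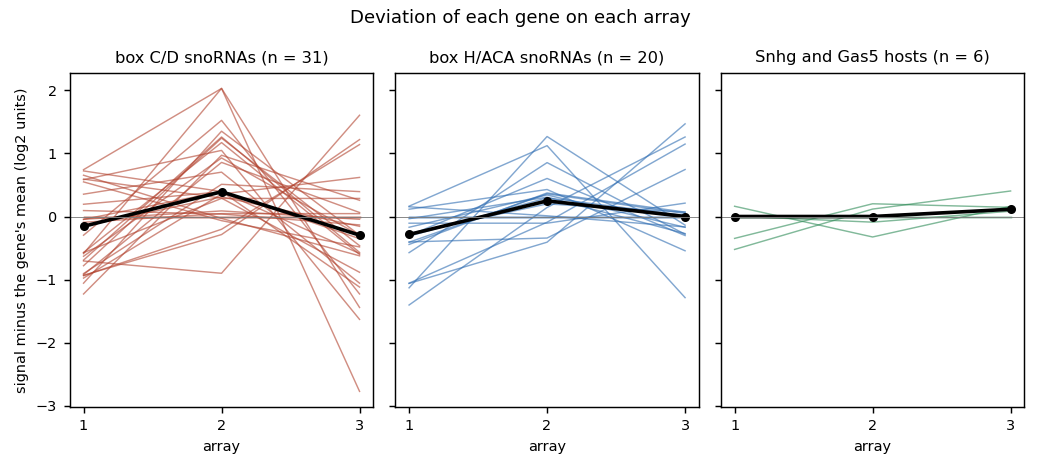
Signal on each array (x axis) minus the gene's own mean over the 3 arrays (y axis, log2 units), 1 thin line per gene, for box C/D snoRNAs, box H/ACA snoRNAs and hosts; the black line joins the medians. Each gene is drawn by its brightest probe set. Lines of both snoRNA classes fan out in several directions with the medians highest on array 2. The 6 hosts so drawn stay within a range of 0.93 log2 units, whereas the 3 other probe sets of Gas5, not drawn, spanned 1.17, 1.18 and 1.58.

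Since most snoRNAs are cut from a host transcript, each was set beside the gene that encloses it in the reference gene table. Before it is cut out, such a snoRNA is part of the unspliced host transcript. Whether a snoRNA probe set read the mature snoRNA or that transcript was not tested. Of the 51 snoRNAs, 50 had an enclosing gene: a protein-coding gene in 37 cases, an Snhg gene or Gas5 in 8 and another noncoding gene in 5. Where several genes enclosed a snoRNA the shortest was taken, and strand was not compared. The enclosing gene had a probe set of its own for 27 snoRNAs, which gave 23 genes. All 23 were above background, against 56.1% of all genes, with means of 7.65 to 13.36 and a median of 12.03.

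The snoRNA had the wider range in 25 of these 27 cases. Ranges had a median of 1.42 log2 units for the 27 snoRNAs, against 0.06 for the 23 enclosing genes. The sides were not of like level, since mean signals had a median of 12.03 for the enclosing genes and 6.33 over all 51 snoRNAs. Enclosing genes with several probe sets, such as Rps12 with 14, were also read by the brightest alone. What these differences add to the gap in range was not tested. Of the 27, 17 snoRNAs had a range over 1 log2 unit, while 0 of the 23 enclosing genes did, the widest being Eef2 at 0.87, and 3.15% of all genes did. Gas5 counts here by its tied probe set, and its 3 other probe sets each spanned over 1 log2 unit. Snord61 spanned 4.81 and Rbmx, an RNA-binding protein gene, 0.34. Snora41, counted among the 17 although its range helped prompt the set, spanned 2.53. Its enclosing gene Eef1b2, a translation elongation factor gene, held one value. The exceptions were Snora62, with one value where the ribosomal protein gene Rpsa spanned 0.14, and Snord37, which spanned 0.14 where Eef2 spanned 0.87. Where neither was tied, snoRNA and enclosing gene were highest on the same array in 9 of 20 cases. That count was not compared with one for unrelated genes.

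**Figure D4:**
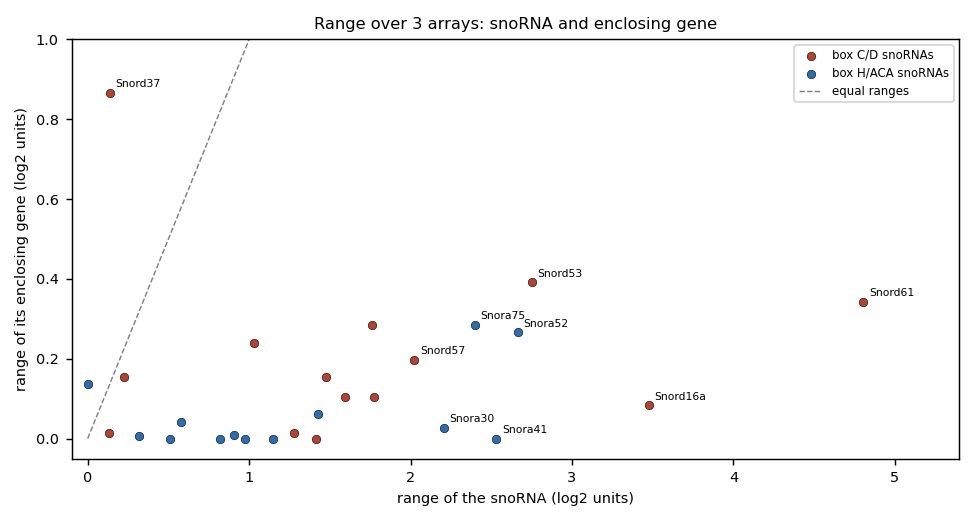
Range over the 3 arrays of each snoRNA (x axis, log2 units) against that of the gene enclosing it (y axis, log2 units, on a shorter scale), for the 27 snoRNAs whose enclosing gene was measured. Each gene is drawn by its brightest probe set. In 25 cases the point lies right of the dashed line of equal ranges, and no enclosing gene so drawn reaches 1 log2 unit.

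The snoRNAs that share an enclosing gene did not always share an array order. There were 10 genes with 2 members inside, and in 8 of these neither member was tied. The pair was highest on the same array in 4 of the 8. Of all 45 snoRNAs that were not tied, 28 were highest on array 2, so snoRNAs of different genes often share it too. The count of 4 was not compared with one for such pairs. The following pairs were picked after their values were seen. Inside Rack1, Snord95 was highest on array 3 at 9.37, where Snord96a, at 6.84, 6.51 and 5.00, was lowest. Inside the ribosomal protein gene Rpl13a, Snord33 read 5.90, 6.64 and 7.98 and was highest on array 3, where Snord35a, at 5.69, 5.89 and 4.91, was lowest. Inside Ncl, Snora75 and Snord82 were both highest on array 2, but Snora75 was lowest on array 1 and Snord82 on array 3. Snora73a and Snora73b inside Snhg3 had the same order on all arrays.

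Genes for the proteins that assemble and work with snoRNAs were read too. Of 21 genes for the core proteins of snoRNA particles and their assembly factors, 19 were above background (90.5%, against 56.1% of all genes), with a median of 8.92. None of the 21 had a range over 1 log2 unit, against 3.15% of all genes. Fbl, which encodes the methyltransferase fibrillarin of box C/D particles, read 11.53, 11.30 and 10.85 on arrays 1, 2 and 3. Nop10, a core protein gene of box H/ACA particles, read 10.90 ± 0.13, and Dkc1, which encodes dyskerin, read 8.92, 8.92 and 8.91. Naf1, at 5.80 ± 0.50, and Shq1, at 5.51 (one value), which encode assembly factors of H/ACA particles, were not called, and Shq1 was the lowest of the list.

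Of 35 listed ribosomal protein, translation factor and other coding genes known to hold snoRNAs, 28 had a probe set of their own, and 28 were above background, against 56.1% of all genes, with a median of 12.02. Rps12 at 13.22 and Tpt1 at 13.18, each with one value, were highest. Rpl12, at 6.85, 7.31 and 6.03, was lowest and the one gene of the list with a range over 1 log2 unit. Of 30 genes for RNA polymerase I and the small-subunit processome, which make and trim the ribosomal RNA that snoRNAs act on, 30 were above background, again against 56.1%, with a median of 8.32. Taf1d at 12.52 ± 0.24 and Npm1 at 12.22 ± 0.13 were highest and Polr1b lowest at 6.07 (one value). Nonsense-mediated decay is the pathway known to remove spliced Snhg and Gas5 transcripts. Of its 11 measured genes, 10 were above background (90.9%, against 56.1% of all genes). Rbm8a read 11.04 ± 0.13, Eif4a3 10.43 ± 0.10 and Smg9, not called, 5.79 ± 0.11. Dkc1, Nop56 and Ncl each stand in 2 of these lists.

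Probe sets annotated with several symbols were kept out of the member set. There were 41 that named a snoRNA or Snhg gene, and none of the 20 such symbols they named was a member. The Snord116 cluster, imprinted snoRNA genes best known from neurons, accounted for 24 of them. Their means lay between 3.99 and 4.43, all below the cutoff, and all 24 were highest on array 2. Of the 24, 19 held the same 3 values, which makes these 1 reading, so the 24 are not separate cases. The widest of the others named Snord68 and Rpl13 and read 4.03, 4.53 and 8.90 on arrays 1, 2 and 3. Both probe sets shared by Snord14c, Snord14d and Hspa8 were lowest on array 1 and highest on array 3, at 8.41, 9.34 and 10.42 and at 8.47, 9.40 and 10.48, whereas Snord14e of the same gene was highest on array 1.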

How the data were processed

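The authors deposited 1 table of log2 signals per probe set and array, read as log2 from its range of 1.90 to 14.16 and array medians of 5.85 to 5.90. Per the submitters' processing notes the software was Affymetrix Expression Console; its algorithm and settings are not stated there. Of 35557 probe sets, the platform annotation gave 21789 a single symbol, 1621 several and 12147 none. By Entrez number 21698 matched the RefSeq gene table of GRCm38.p6, which was used for names, gene type and which gene encloses which, and 0 symbols changed. Each signal less its array's cutoff went into limma's lmFit and eBayes (limma 3.58.1, R 4.3.3, intercept alone), one-sided, with Benjamini-Hochberg adjustment over all single-gene probe sets, and no filter on low values was used. The fit was tested on simulated data with a common SD of 0.116 log2 units and no ties. There 0% of probe sets set at -0.5 log2 units from the cutoff were called, and 96% of those at 0.25. The median SD of snoRNAs that were not tied was 0.79, so that test does not cover such wide ranges or tied probe sets. For tied probe sets the fitted p is too small. Precision is limited by the number of arrays, 3.

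The members, gene lists and tests were chosen with earlier results of these data known. Named were every host, and of each snoRNA class the 6 highest and 3 lowest means, the 5 widest ranges and the 2 called and 2 not called nearest to the cutoff, and of each list the 2 highest and 1 lowest; further genes were named after their values were seen, among them Snord57 and the other box C/D genes outside these ranks, Snord96a, Snord33, Snord35a, Snora62, Snora73a and Snora73b. Alternatives varied the cutoff, the spread of tied probe sets, the probe set of a gene, the scaling, the tract search and the arrays used.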

Additional observations from a re-analysis of the deposited data

How the results depend on the processing

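The member counts above background depend on the cutoff and on the spread given to tied probe sets. With that spread taken from probe sets that were not tied, 33 of 57 members (57.9%) were called, against 53.9% of all genes. With the cutoff raised by 1 log2 unit, 14 of 57 members, 6 box H/ACA genes and 2 hosts were called, and 5647 of all genes (28.3%) in place of 11194. At the 99th percentile 8 box H/ACA genes were called, and 7193 of all genes (36.1%). Leaving out an array gave 9 to 20 box C/D genes called, where the 20 come from the fit without array 3, in which limma gave all genes one common spread, and there box C/D at 64.5% stood above the 51.9% of all genes called. Under every alternative cutoff, spread and array set tried, 14 of the 27 called members kept the call, 13 lost it under at least 1, and 17 others gained it under at least 1. The box C/D median was 6.84 over genes above the mean cutoff, a change by construction. With an array left out, an alternative chosen after seeing the data that can narrow a range but not widen it, 12 to 15 box C/D genes and 3 to 7 box H/ACA genes had a range over 1 log2 unit. Quantile normalization and averaging probe sets left the range counts at 21, 7 and 0. The start tract was found for 16.7% of the 6 hosts with no shift, for 0 of them with at least 6 further pyrimidines, and for 3 of them within 15 bases, a width chosen after seeing the data. No paired analysis was possible because the samples form 1 group.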
